A study of Mus musculus with 12 samples.

Results

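Resting CD4 T cells are described here in the spleens of 2 WT and 2 lupus-prone SLE.yaa mice. A cell was counted as resting if the authors annotated it CD4, if Foxp3 was 0, and if fewer than 2 of the 5 genes Pdcd1, Lag3, Tigit, Maf and Icos were above 0. The rule found 1670 of 2816 CD4 T cells, in a table of 22285 cells. WT 1 gave 708 of them and WT 2 gave 740, while SLE.yaa 1 gave 126 and SLE.yaa 2 gave 96. Cells with Foxp3 at 0 and 2 or more of the 5 genes are called activated helper cells below.

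All 4 animals were male, and spleen cells positive for CD45, which white blood cells carry on their surface, were enriched by magnetic sorting before capture in 10x Genomics droplets. WT mice were C57BL/6. SLE.yaa mice were B6.Sle1yaa, a strain with the Sle1 lupus interval of chromosome 1 and with Yaa, a piece of the X chromosome carried on the Y. The deposited age, with no unit, was 14.4 in WT and 14.9 in SLE.yaa mice, so age cannot be told apart from the group. The labels list the group under "chimera condition", and no source used here says if donor and host cells were mixed. Each mouse gave 1 expression and 1 T cell receptor library, and the mouse was the replicate, so each SD is over n = 2 mice. Each limma p-value sets the group difference against a spread between mice that is drawn in part from other genes. Each permutation p-value regroups the 4 mice.

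A naive CD4 T cell has left the thymus, has not yet met its antigen, and circulates between blood, spleen and lymph nodes. It is kept quiescent by transcription factors such as Lef1, Tcf7, Foxo1 and Klf2, and it finds T cell zones with the chemokine receptor Ccr7. After antigen contact these genes are turned down, and the cell gains genes of adhesion, motility and effector function, many of which persist in memory cells. A rule that removes cells by checkpoint and follicular helper genes therefore leaves naive cells together with memory cells that lack those genes. Such a rule can also leave activated or regulatory cells in which the genes of the rule were expressed but not read. How many such cells remained was not tested.

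Resting cells made up most CD4 T cells in WT mice and a minority in SLE.yaa mice. Of the CD4 T cells of WT 1, 88.8% were resting (exact Clopper-Pearson 95% interval 86.4 to 90.9), and of those of WT 2, 88.7% (86.4 to 90.8). The share was 19.8% (16.8 to 23.2) for SLE.yaa 1 and 17.5% (14.4 to 20.9) for SLE.yaa 2. These intervals, like all below, cover counting error alone. The mean difference was −70.1 percentage points. Activated helper cells were 21 and 27 in WT against 368 and 339 in SLE.yaa, and Foxp3-expressing cells 68 and 67 against 141 and 115. Among all cells of the table, resting CD4 T cells made up 12.9% and 13.0% in WT against 2.54% and 1.57% in SLE.yaa mice. These shares use the genes of the rule and are given as a description, with no test.

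**Figure D1:**
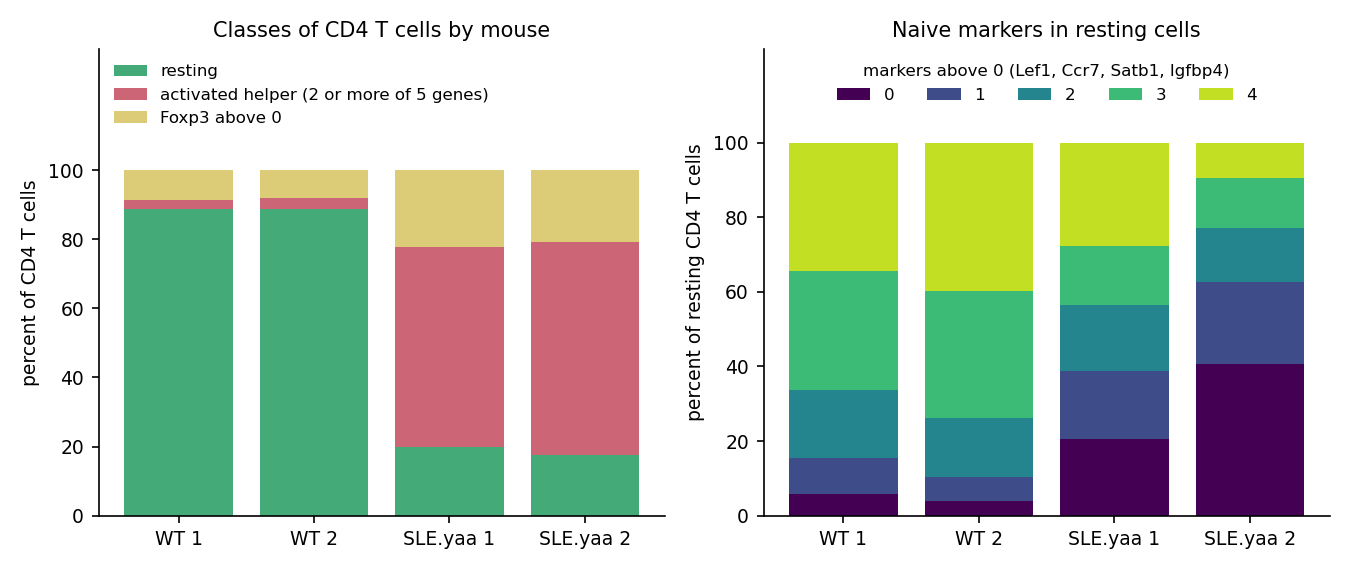
Left, percent of CD4 T cells of each mouse that were resting, activated helper or Foxp3-expressing. Right, percent of resting CD4 T cells with 0 to 4 of the markers Lef1, Ccr7, Satb1 and Igfbp4 above 0. Resting cells are 88.8% and 88.7% of CD4 T cells in WT and 19.8% and 17.5% in SLE.yaa mice, and those without a marker reach 40.6% in SLE.yaa 2.

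The name "resting" matched its markers well in WT mice and less well in SLE.yaa mice. The markers were Lef1, a transcription factor of naive T cells, Ccr7, Satb1, a chromatin organiser, and Igfbp4, which encodes a binding protein of insulin-like growth factors. At least 2 of the 4 were above 0 in 84.6% and 89.7% of resting cells of WT mice, and in 61.1% and 37.5% of those of SLE.yaa mice. None was above 0 in 5.93% and 4.05% of WT cells, 20.6% of SLE.yaa 1 cells and 40.6% of SLE.yaa 2 cells. In SLE.yaa 2, then, fewer resting cells held 2 markers than held none, and the cells are called resting there by the rule alone. The lineage genes Cd3e, Cd3d, Cd3g and Cd4 were present in the resting cells of all 4 mice.

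Cells near the threshold of the rule differed in the same markers. Resting cells with exactly 1 of the 5 genes made up 15.8% and 14.1% in WT against 42.1% and 57.3% in SLE.yaa mice. At least 2 naive markers were held by 67.9% and 80.8% of these cells for the WT mice and by 35.8% and 21.8% for the SLE.yaa mice. Cells just outside, with exactly 2 of the 5, held them in 43.8%, 37.5%, 22.9% and 9.68%. Because of this, results are also given for resting cells with at least 2 naive markers: 599, 664, 77 and 36 cells.

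The levels below are scaled mean values: the authors' depth-adjusted value of a gene, averaged over the cells of a mouse and scaled so that all genes sum to 1000000, with a further TMM factor between mice. In that unit the rule genes themselves were Pdcd1 4.92 and 4.44 in WT against 14.1 and 23.8 in SLE.yaa, Lag3 1.14 and 0 against 40.5 and 45.0, and Tigit 1.89 and 0.684 against 21.1 and 63.5. Maf was at 18.2 and 9.23 against 26.4 and 58.2, and Icos at 26.1 and 28.4 against 49.3 and 74.1. These checkpoint and costimulatory genes were thus higher in both SLE.yaa mice even among cells that passed the rule, and since they chose the cells they were not tested.

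Where 4 values follow each other without a name, they belong to the mice in the order WT 1, WT 2, SLE.yaa 1, SLE.yaa 2. Median UMI counts of resting cells were 4053, 4457, 5004.5 and 3611.5, from 375405 to 3362658 UMIs in all per mouse. Of the cells, 36 of 1670 had a barcode sequence that also occurred in another library. Transcripts of plasma cells were found in resting and in CD8 T cells at like shares. Jchain was above 0 in 0.706% and 0.270% of resting cells in WT and 21.4% and 11.5% in SLE.yaa, and in 0.446%, 0.703%, 18.6% and 8.88% of CD8 T cells (median UMIs 4270 to 6189). The 9 plasma cell markers summed to 86.7 and 85.5 in WT and to 8448 and 421 in SLE.yaa mice, and 1 cell held 97.2% of the Igkc in SLE.yaa 1. The 12 B cell markers summed to 2433 and 1974 in WT against 1758 and 2278 in SLE.yaa, with Cd79a above 0 in 143 of 708, 121 of 740, 24 of 126 and 24 of 96 resting cells. Leaving out cells with a heavy chain contig gave 11 called genes, and leaving out cells with B cell or Cd8a transcripts gave 3, in place of the 6 below. The erythroid and platelet genes summed to at most 7.94 in any mouse. Of the NK cell markers, Ncr1, the defining gene, was listed at 0 in all 4 mice, and Klrd1 was at 27.6, 30.1, 22.9 and 0. Cd8a was at 5.30 to 16.8, and Cd8b1 at 38.6, 44.4, 45.8 and 29.1. The 11 monocyte and macrophage markers summed to 322 and 297 in WT against 495 and 598 in SLE.yaa mice. The 7 neutrophil markers summed to 134, 23.6, 24.7 and 101.

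Few genes passed the test when resting cells were compared between the groups. With limma on log2 of the value plus 10 and a Benjamini-Hochberg adjusted p under 0.05, 6 of 8072 genes were called (0.0743%), 5 of them up (0.0619%) and 1 down (0.0124%) in SLE.yaa mice; without scaling between mice it was 66 up and 3 down. The 5 were Il2rb, Eea1, Tmem176a, Tmem176b and Sostdc1, and the 1 was Ly6c1. An unadjusted p under 0.05 was reached by 1060 genes. Adjusted p was 0.0426 for each of the 5 and 0.0438 for Ly6c1, close to the threshold of 0.05.

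Il2rb encodes the beta chain of the interleukin 2 and interleukin 15 receptor and lies on chromosome 15 from 78479256 to 78511621 (GRCm38). Its scaled mean value was 40.1 and 35.2 for the WT mice and 181 and 246 for the SLE.yaa mice. Both SLE.yaa mice stood above both WT mice, at 37.7 ± 3.47 (SD, n = 2) against 214 ± 45.8 (SD, n = 2). On the log2 scale with 10 added it rose by 2.22 (SE 0.19, limma adjusted p = 0.0426). By cells, Il2rb was above 0 in 58 of 708, 55 of 740, 43 of 126 and 48 of 96 resting cells, while B cells (median UMIs 3218 to 4778) held it in 0.479% to 1.71%. In SLE.yaa 2, S100a6 was above 0 in 34 of the 48 resting cells with Il2rb and in 17 of the 48 without, and in WT 1 in 21 of 58 and 39 of 650.

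Eea1 encodes an early endosome tether and lies on chromosome 10 from 95940663 to 96045518. It stood at 12.9 and 14.4 in WT and at 91.6 and 146 in SLE.yaa mice, with no overlap between the groups. The log2 change was 2.41 (SE 0.24, limma adjusted p = 0.0426). The share of resting cells with Eea1 was 4.10% and 4.46% in WT against 17.5% and 32.3% in SLE.yaa. Eea1 was above 0 in B cells too, in 11.2% to 14.7%, so B cells give no background for it.

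Tmem176a and Tmem176b encode paired membrane channel proteins and overlap on chromosome 6 (48841483 to 48845364 and 48833811 to 48845948). No strand setting of the counting is stated in the sources used here, so reads in the shared stretch may have been split or lost between them. Tmem176b was at 5.30 and 6.84 in WT against 82.8 and 63.5 in SLE.yaa, and Tmem176a at 7.19 and 5.13 against 52.8 and 58.2. They rose by 2.36 (SE 0.21) and 2.02 (SE 0.20) on the log2 scale, each with limma adjusted p = 0.0426. Both genes were below 10 in both WT mice and so entered the test through the SLE.yaa mice, where they are high. Few cells held Tmem176b: 11 of 708 (1.55%), 14 of 740 (1.89%), 10 of 126 (7.94%) and 10 of 96 (10.4%) resting cells. B cells held it in 47 of 3129, 54 of 3403, 96 of 2465 and 90 of 2453 (median UMIs 3218 to 4778). In the SLE.yaa mice this was 3.89% and 3.67%. The WT shares of resting cells were thus close to those of WT B cells, and the share in B cells was itself higher in SLE.yaa mice. Of resting cells with Tmem176b, 6 of 11, 6 of 14, 9 of 10 and 5 of 10 also held Tmem176a. Of those without it, 5 of 697, 3 of 726, 2 of 116 and 1 of 86 did. Whether the WT cells with Tmem176b were background was not tested.

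Sostdc1 encodes a secreted antagonist of BMP and Wnt signals that is known from follicular helper T cells, and lies on chromosome 12 from 36314169 to 36318452. It was listed at 0 in both WT mice and at 38.7 and 55.6 in SLE.yaa mice (limma adjusted p = 0.0426), so no fold is given. It entered the test through the SLE.yaa mice alone, where it is high. Resting cells with Sostdc1 numbered 5 of 126 and 5 of 96 in SLE.yaa. A count of 0 in 708 and 740 WT cells allows a share of cells with a UMI of up to 0.424% and 0.405%; a cell may express the gene and give none. Of the 10 cells, 1 held 2 or more naive markers and 1 held none of the 5 rule genes. Eea1 was above 0 in 2 of the 5 in SLE.yaa 1 and in 5 of 5 in SLE.yaa 2.

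Ly6c1 encodes a surface protein of the Ly6 family that part of the naive CD4 T cells carry, and lies on chromosome 15 from 75044018 to 75048920. It was at 244 and 232 in WT and at 77.5 and 58.2 in SLE.yaa mice, and fell by 1.68 on the log2 scale (SE 0.17, limma adjusted p = 0.0438). The share of resting cells with Ly6c1 was 39.7% in each WT mouse, 18.3% in SLE.yaa 1 and 13.5% in SLE.yaa 2, against 0.0408% to 0.382% of B cells. In every mouse most cells with Ly6c1 held naive markers: 264 of 281, 278 of 294, 21 of 23 and 12 of 13 resting cells with Ly6c1 held at least 2. Its near-identical neighbour Ly6c2 had the reverse order of groups, 28.0 and 29.7 in WT against 74.0 and 63.5 in SLE.yaa, and reads may be shared between the copies.

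**Figure D2:**
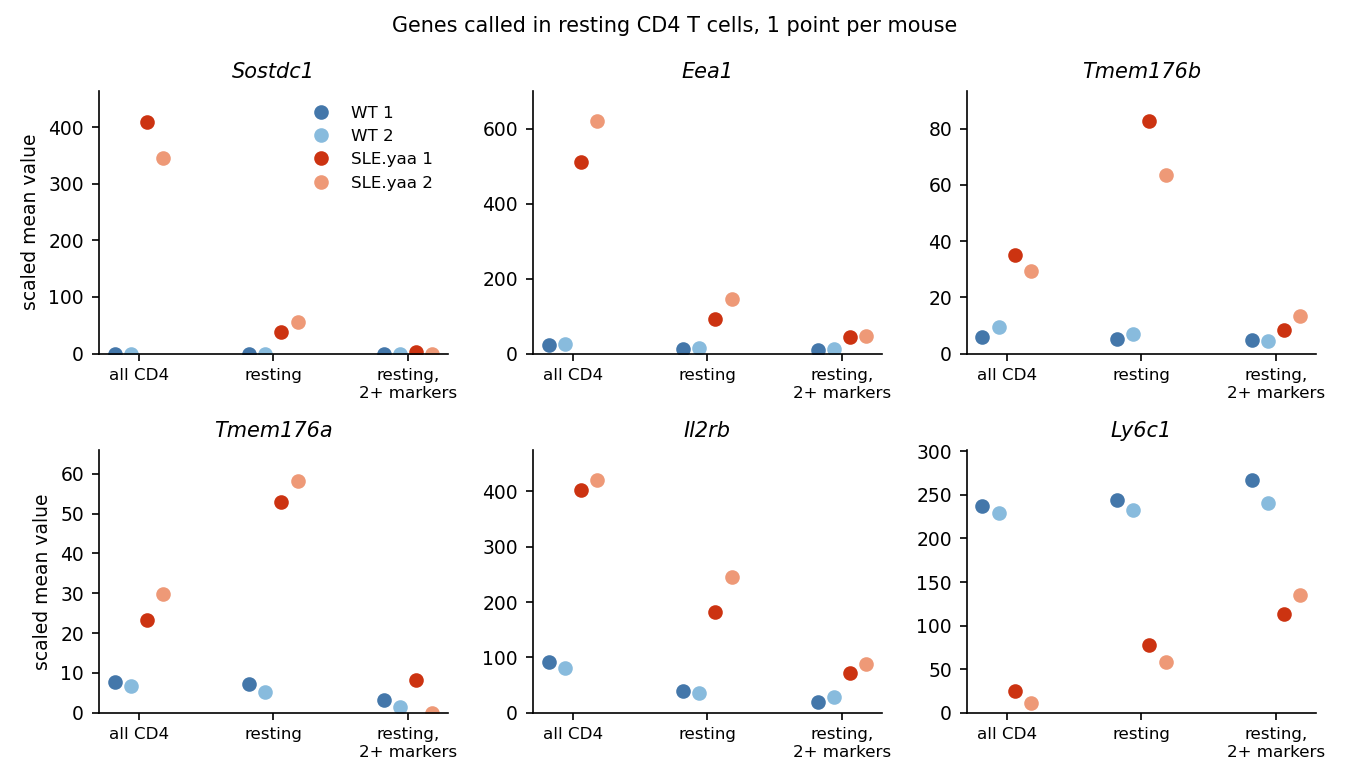
Scaled mean value (linear axis from 0) of the 6 genes that passed the test in resting CD4 T cells, 1 point per mouse, in all CD4 T cells, in resting cells and in resting cells with 2 or more naive markers. For Il2rb the SLE.yaa mice stand at 181 and 246 in resting cells and at 71.7 and 87.6 in those with 2 or more naive markers, above the WT mice in each set.

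The calls rested on the choice of cells and of settings. No gene passed with none of the 5 rule genes allowed (0 of 7911, 619 at an unadjusted p under 0.05) or among resting cells with at least 2 naive markers (0 of 7972, 0.0% called, 585 unadjusted), and none with a pseudocount of 1 or without the filter on low values. The first set held 73 and 41 cells of the SLE.yaa mice, and the second 77 and 36. Their median SE was 0.27 and 0.25, against 0.21 in all resting cells, so the lack of calls does not show a lack of change. With 1 mouse left out, the counts were 107 (WT 1 left out), 69 (WT 2), 2715 (SLE.yaa 1) and 1246 (SLE.yaa 2), where the lone mouse is assumed to vary like the other group.

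To ask which changes remain without the cells called activated, these values were set beside those of all CD4 T cells. All CD4 T cells come from the same mice and include the same resting cells. Over all CD4 T cells 2359 of 8409 genes were called (28.1%), 1327 up (15.8%) and 1032 down (12.3%). Without scaling between mice, which moved the median of all genes from −0.02 to 0.16, the split was 2050 to 485. Of the 2359, 2057 could be tested in resting cells and 6 passed there, which are all 6 genes called in resting cells. The median absolute log2 change of the 2057 was 0.63 in all CD4 T cells and 0.37 in resting cells, and their median SE rose from 0.15 to 0.20 with fewer cells. Since these genes were chosen by their change in all CD4 T cells, the decrease is a description.

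The levels of the 6 genes over all CD4 T cells, which include Foxp3-expressing and activated cells, stood above or below those in resting cells. In the test of resting against activated change none of the 6 passed, with limma adjusted p from 0.0907 (Sostdc1 and Il2rb) to 0.565 (Ly6c1). Sostdc1 was at 410 and 346 over all CD4 T cells of SLE.yaa mice, against 38.7 and 55.6 in resting cells. Eea1 was at 511 and 619, against 91.6 and 146. Il2rb was at 403 and 420, against 181 and 246, and its log2 change was 2.14 over all CD4 T cells and 2.22 in resting cells. Tmem176b was at 35.1 and 29.5 over all CD4 T cells of SLE.yaa mice, against 82.8 and 63.5, and Tmem176a at 23.3 and 29.9, against 52.8 and 58.2. Ly6c1 was at 25.4 and 10.99 over all CD4 T cells of SLE.yaa mice, where 2 of 368 and 1 of 339 activated helper cells held it. Activated helper cells by themselves gave 8 of 8565 genes called (0.0934%), all 8 up.

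Genes of activation and memory had the highest median change of the 17 lists other than cell type markers, although none of the 22 passed the test. The plasma cell markers were higher still, with a median of 2.71 over 6 genes, 4 of them below 10 in both WT mice. The list holds the integrin Itgb1, the calcium-binding S100 proteins, the chemokine receptor Cxcr3 and the costimulatory receptor Tnfrsf4, and it holds no rule gene. Its median log2 change was 1.79 in resting cells, against −0.05 over all 8072 genes, and 2.18 over all CD4 T cells. Of the 22, 21 were above both WT mice in both SLE.yaa mice, a pattern seen for 19.4% of all genes tested, and 3 of the 22 were below 10 in both WT mice. The exception was Cd40lg, the ligand that helper T cells show to B cells, with values of 104 and 137 in WT against 88.1 and 47.6 in SLE.yaa.

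S100a6, a calcium-binding protein of memory and effector cells, had a scaled mean value of 108, 50.3, 602 and 1842. S100a4, its relative linked to motility, was at 56.4, 17.1, 238 and 672. Itgb1, the integrin beta 1 chain, was at 92.7, 48.2, 313 and 794. The SLE.yaa mice were far apart in all 3, with SLE.yaa 2 the highest and SLE.yaa 1 between it and the WT mice. The log2 changes were 3.66 (SE 0.53, limma adjusted p = 0.0915), 3.28 (SE 0.55, adjusted p = 0.111) and 2.72 (SE 0.44, adjusted p = 0.104). Cxcr3 was at 22.0, 12.0, 77.5 and 175, Anxa2 at 20.8, 13.7, 107 and 185, and Tnfrsf4 at 18.9, 13.7, 81.0 and 164. S100a6 was above 0 in 8.47%, 5.41%, 28.6% and 53.1% of resting cells, against 5.05% to 7.87% of B cells (median UMIs 3218 to 4778). The WT shares were close to those of B cells, but they differed with the naive markers. With fewer than 2 markers the shares were 34.9%, 28.9%, 53.1% and 73.3%, and with 2 or more 3.67%, 2.71%, 13.0% and 19.4%.

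**Figure D3:**
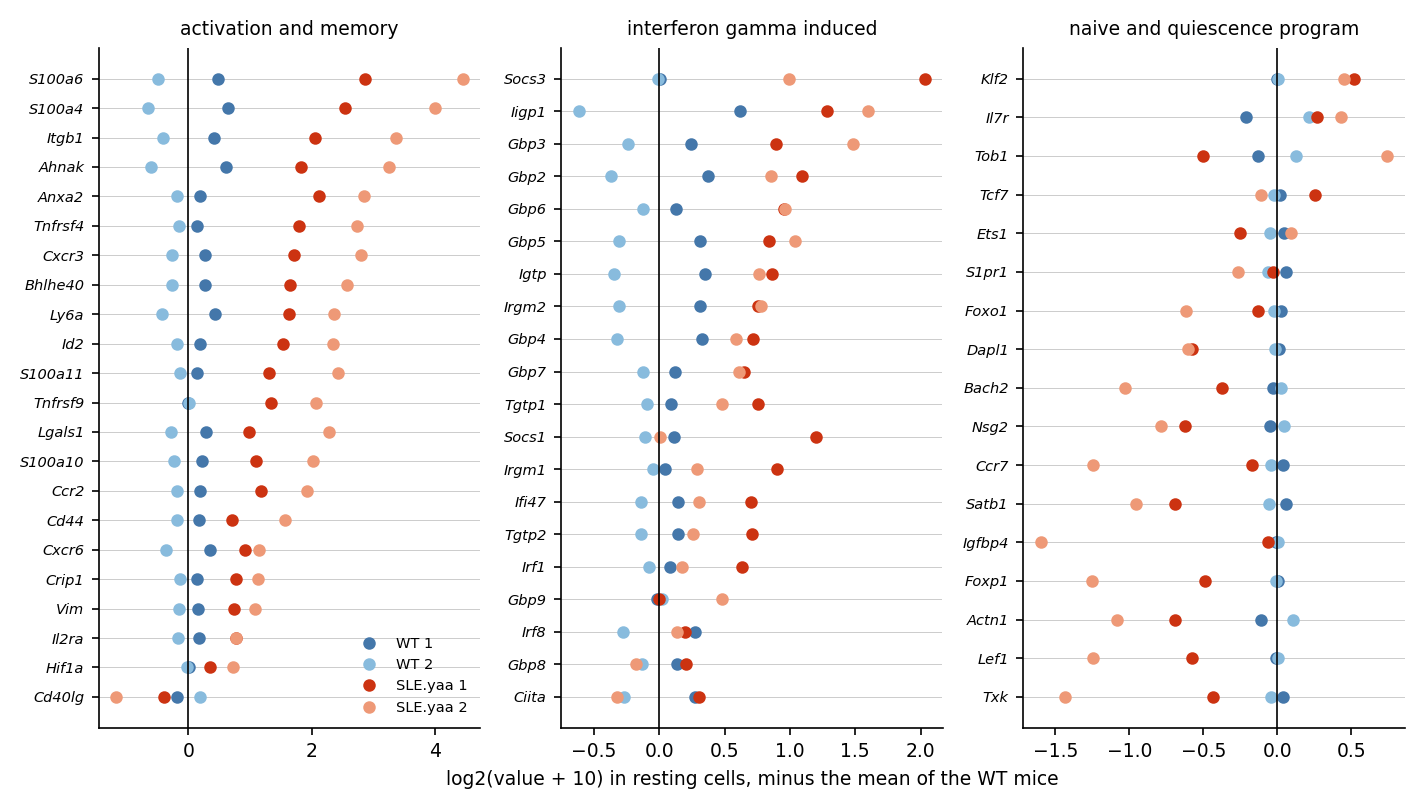
Genes of 3 lists in resting CD4 T cells (1 gene of the naive list is not drawn), 1 point per mouse: log2 of the scaled mean value plus 10, minus the mean of the 2 WT mice. In the activation and memory list 21 of 22 genes have both SLE.yaa mice above both WT mice, in the interferon gamma list 15 of 20, and in the naive and quiescence list 11 of 18 have both below.

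Naive and quiescence genes had lower values in resting cells of SLE.yaa mice, most of all in SLE.yaa 2, and none of the 18 passed the test. The median log2 change was −0.64 in resting cells and −1.64 over all CD4 T cells. In the latter all 18 were lower by value and 15 of the 18 were called lower, against 12.3% of all genes. Both SLE.yaa mice were below both WT mice for 11 of the 18, against 25.8% of all genes tested. Lef1 was at 651 and 657 in WT and at 435 and 270 in SLE.yaa, and Satb1 at 453 and 417 against 266 and 220. Igfbp4 was at 706 and 712 in WT and at 680 and 228 in SLE.yaa mice, so that the first SLE.yaa mouse was close to WT and the second was not. Ccr7 behaved likewise, at 388 and 365 against 333 and 153.

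Other genes of the same list did not follow. Klf2, a factor of quiescence and egress, was at 668 and 671 in WT against 965 and 918 in SLE.yaa. Tcf7, the partner of Lef1, was at 652, 633, 770 and 595, with overlapping groups. Il7r, the receptor chain for the survival cytokine interleukin 7, was at 399 and 540 against 562 and 630.

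Interferon gamma induced genes were higher in resting cells of SLE.yaa mice by value, with a like median in cells with naive markers. The list holds the guanylate binding proteins and immunity-related GTPases, which act against intracellular microbes. None of the 20 passed the test, with a median log2 change of 0.62 in resting cells, 0.27 over all CD4 T cells and 0.61 in resting cells with 2 or more naive markers. Both SLE.yaa mice were above both WT mice for 15 of 20 in resting cells and for 16 of 20 in those with naive markers, where the share of all genes was 16.7%. Gbp6 was at 40.1 and 32.1 in WT against 79.2 and 79.4 in SLE.yaa, with a log2 change of 0.96 (SE 0.18, limma adjusted p = 0.131). Gbp2 was at 87.8, 48.5, 151 and 127, and Iigp1 at 59.4, 19.5, 100.4 and 127. WT 1 had the higher value of the 2 WT mice in each of these 3 genes. Socs3, a feedback inhibitor of cytokine signals, was at 49.96 and 49.2 against 234 and 108.

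The type I interferon list gave 0 of 31 measured genes past the test, and its median log2 change was 0.49 in resting cells, 0.26 over all CD4 T cells and 0.39 with naive markers. Both SLE.yaa mice were above both WT mice for 21 of 31, against 19.4% of all genes tested. Ifi27l2a was at 604 and 565 against 1196 and 2029.6, a log2 change of 1.40 (SE 0.24, limma adjusted p = 0.111). Classical members had smaller differences: Isg15 was at 94.6 and 111 against 129 and 183, and Irf7 at 60.6 and 66.0 against 122 and 74.1. Ifit1 was at 35.2 and 63.9 against 72.2 and 79.4, and Ifit3 at 25.7 and 46.2 against 66.9 and 60.9. Ifit2 went the other way, at 41.6 and 45.5 against 29.9 and 39.7. It was the 1 gene of the 31 with both SLE.yaa mice below both WT mice.

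Follicular helper and exhaustion genes beyond the rule genes had a median log2 change of 0.82 over the 12 of 16 that could be tested, against 1.74 over 15 in all CD4 T cells; 1 of the 12, Sostdc1, passed, and 2 of the 12, Sostdc1 included, were below 10 in both WT mice. Slamf6, a signalling receptor of the SLAM family that lies in the Sle1 interval, was at 156 and 139 in WT against 338 and 439 in SLE.yaa, a log2 change of 1.33 (SE 0.17, limma adjusted p = 0.0878). Izumo1r, the folate receptor 4 of regulatory and follicular helper cells, was at 147 and 119 against 285 and 315 (adjusted p = 0.0890 by limma). Bcl6, the master factor of follicular helper cells, was at 16.7, 12.0, 21.1 and 15.9 with overlapping groups. Il21, their cytokine, was listed at 0 in WT and at 5.28 and 7.94 in SLE.yaa, below the filter. Regulatory T cell genes beyond Foxp3 were tested for 7 of 10, with a median of 1.53 and none past the test, and 3 of the 7 were below 10 in both WT mice.

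Effector and cytotoxic genes could be tested for 9 of 16, 3 of them below 10 in both WT mice, and none passed. Ccl5, a chemokine of effector cells, was at 139, 37.6, 194 and 1553, so that 1 mouse carried the difference. Nkg7, a granule protein, was at 40.9, 27.4, 118 and 349. The median log2 change of the 9 was 0.82. Both SLE.yaa mice were above both WT mice for 7 of the 9, against 19.4% of all genes tested. Gzma, at 29.5, 3.42, 14.1 and 0, and Prf1, at 21.2, 28.7, 26.4 and 5.29, had overlapping groups. Their log2 changes were negative, at −0.57 and −0.56. Gzmb, Ifng, Ccl3 and Ccl4 stayed under the filter.

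T cell receptor signalling, cytokine receptor, homing, survival, proliferation and metabolism genes were closer to the rest of the genes. Median log2 changes in resting cells were 0.10 over 19 genes of the CD3 complex and receptor signalling, 0.27 over 12 of survival and 0.19 over 17 of metabolism. The medians of cytokine receptors (0.02), homing and egress (−0.02) and proliferation (−0.04) changed sign with the scaling, from −0.03 to 0.13, −0.08 to 0.10 and −0.11 to 0.09. Il2rb was the one gene of these 6 lists that passed. Over all CD4 T cells 75 of 80 ribosomal protein genes were lower in both SLE.yaa mice than in both WT mice, against 31.8% of all genes there (32.0% were higher in both), with a median of −0.46. In resting cells it was 17 of 80, against 25.8% of all genes tested there, with a median of 0.03. Higher in both SLE.yaa mice were 16 of 80, against 19.4% of all genes tested in resting cells. Heat shock genes had a median of −0.24 and WT 2 was apart from WT 1, with Hsph1 at 40.9, 149, 58.1 and 66.2.

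**Figure D4:**
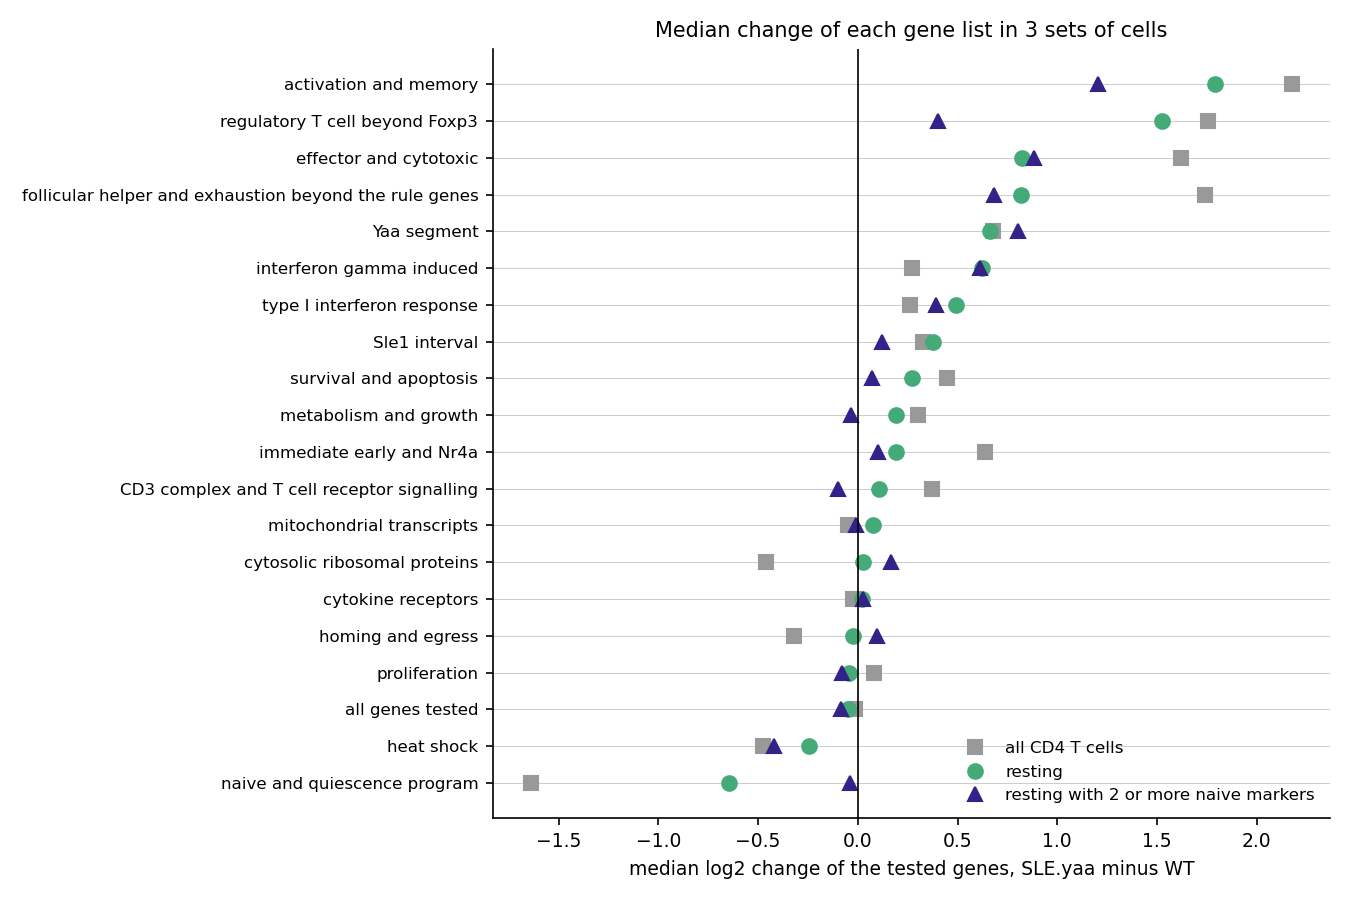
Median log2 change, SLE.yaa minus WT, over the tested genes of each list, in all CD4 T cells (squares), resting cells (circles) and resting cells with 2 or more naive markers (triangles). The activation and memory list stands at 2.18, 1.79 and 1.20, the interferon gamma list at 0.27, 0.62 and 0.61, and all genes tested near 0. The naive list lost its 4 markers from the third set, where they chose the cells.

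Genes of the duplicated Yaa segment were tested for 8 of 14 measured members in resting cells, and both SLE.yaa mice were above both WT mice for 6 of the 8, against 19.4% of all genes tested; 1 of the 8, Gpm6b, was below 10 in both WT mice. The median log2 change was 0.66 in resting cells, 0.68 over all CD4 T cells and 0.80 in resting cells with 2 or more naive markers. Tmsb4x, the actin-binding thymosin beta 4, was at 7387 and 6482 in WT against 13995 and 19317 in SLE.yaa, a log2 change of 1.25 (SE 0.17, limma adjusted p = 0.0879). The same change was 1.22 over all CD4 T cells and 1.14 with naive markers. Rab9, a small GTPase of endosomes, was at 24.98 and 25.3 against 52.8 and 47.6, and Hccs, a mitochondrial enzyme, at 18.5 and 17.8 against 33.5 and 29.1. Gpm6b, a membrane glycoprotein, was at 3.78 and 3.08 against 47.5 and 108. Tlr7, the RNA sensor for which Yaa is known, was at 5.30, 4.79, 10.6 and 5.29, below the filter. In the Sle1 interval 15 of 22 measured genes were tested, with a median of 0.38 and no call; Slamf1 was at 17.4 and 15.4 against 49.3 and 29.1, Slamf7 at 9.46 and 6.15 against 38.7 and 26.5, and Cd48 at 162 and 158 against 151 and 159.

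When cells had to hold at least 2 naive markers, the median of the activation list was closer to that of all genes, and those of the interferon gamma and Yaa lists were not. Of the 18 naive and quiescence genes, 14 remained after the 4 markers were set aside, and their median was −0.04. The median of −0.64 in resting cells was over all 18, so the medians are not of the same genes. Log2 changes of the 14 ran from −0.77 to 0.41. Both SLE.yaa mice were below both WT mice for 7 of the 14, against 26.1% of all genes in that set, and above both for 4. The activation list had a median of 1.20 over 17 genes, with 11 of 17 above both WT mice, against 16.7% of all genes in that set. S100a6 was at 32.9 and 21.9 in WT, and at 96.5 and 471 in SLE.yaa mice. With none of the 5 rule genes allowed as well (523, 580, 58 and 24 cells), the activation median was 0.17, the interferon gamma median 0.56, the Yaa median 0.31 and the naive median −0.11, a set of cells chosen after seeing the data. In that set S100a6 had a log2 change of −0.086. Ly6c1 remained lower by value in cells with naive markers, at 267 and 241 against 113 and 134.7, and Il2rb higher, at 19.6 and 28.7 against 71.7 and 87.6 (limma adjusted p = 0.579 for both).

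Resting cells with fewer than 2 naive markers numbered 109, 76, 49 and 60. Here 79 of 8088 genes were called (0.977%), 46 up (0.569%) and 33 down (0.408%) in SLE.yaa mice, in a set chosen after seeing the data. S100a6 was at 559 and 319 against 1501 and 2644, a rise of 2.21 (SE 0.25, limma adjusted p = 0.000129), and Slamf6 at 156 and 150 against 421 and 524. These cells carried B cell transcripts in WT mice: Cd79a was above 0 in 43 of 109, 27 of 76, 15 of 49 and 12 of 60 of them, against 6.92% to 16.0% of CD8 T cells. The median log2 change of the 12 B cell markers was −2.06 in this set, and 10 of the 33 genes called down were these markers. The 9 plasma cell markers summed to 217, 290, 22903 and 376. The part of either in the other calls was not tested.

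The change in resting cells was then compared with the change in activated helper cells of the same mice. Of 8843 genes 1 was called (0.0113%): Spp1, the secreted protein osteopontin, on chromosome 5 from 104435111 to 104441053. It entered the test through the activated cells of SLE.yaa mice alone, where it is high, so the call supports nothing beyond the values below. The fitted difference in change was −4.53 on the log2 scale (limma adjusted p = 0.0234), a value that depends on the pseudocount. Spp1 was listed at 0 in the resting cells of all 4 mice, which allows shares of cells with a UMI of up to 0.424%, 0.405%, 2.38% and 3.13%. In activated helper cells it was listed at 0 in WT and at 256 and 222 in SLE.yaa mice, in 12.5% and 8.55% of cells. The 21 and 27 activated cells of WT mice allow shares of cells with a UMI of up to 14.3% and 11.1%, so its absence there was not detectable at this depth. Il2rb differed in the other direction without passing: its log2 change was 1.78 larger in resting cells (SE 0.25, limma adjusted p = 0.0907), with activated cells at 317 and 280 in WT against 403 and 405 in SLE.yaa. With 1 mouse left out, 585 (WT 1 left out), 888 (WT 2), 9 (SLE.yaa 1) and 5 (SLE.yaa 2) genes differed.

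T cell receptors, which the rule did not use, gave a second view of the same cells. Each T cell makes 1 alpha and 1 beta chain by joining gene segments, and cells that share both descend from 1 founder, so naive cells are nearly all different. A receptor was read in 522, 538, 95 and 53 resting cells, and they held 508, 536, 95 and 52 clones as named by the authors. These 4 clones are shown because they carry the finding: the largest clone with resting cells, and 3 clones of 5 cells that spanned resting and activated cells. The sequences are the CDR3, the stretch that contacts antigen, as deposited, 5′ to 3′, and capitals mark the part between the first and last 9 bases, where the joined segments meet. The chain of each CDR3 was assigned from the contig that holds it. Each CDR3 was counted over all cells of its mouse with a receptor, not over the clone alone. For SLE.yaa 2 clone 10, which has 5 cells, the alpha CDR3 shown was read in 3 and the beta CDR3 in 4. For the other 3 clones both were read in as many cells as the clone has.
WT 1 clone 1 alpha: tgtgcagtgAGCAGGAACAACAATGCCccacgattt
WT 1 clone 1 beta: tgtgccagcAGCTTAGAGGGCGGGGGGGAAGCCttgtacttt
SLE.yaa 1 clone 9 alpha: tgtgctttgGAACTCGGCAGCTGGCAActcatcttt
SLE.yaa 1 clone 9 beta: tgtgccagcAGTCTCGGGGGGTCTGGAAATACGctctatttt
SLE.yaa 2 clone 6 alpha: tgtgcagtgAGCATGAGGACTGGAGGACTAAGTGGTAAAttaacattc
SLE.yaa 2 clone 6 beta: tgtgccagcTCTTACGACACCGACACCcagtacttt
SLE.yaa 2 clone 10 alpha: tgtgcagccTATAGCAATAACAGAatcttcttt
SLE.yaa 2 clone 10 beta: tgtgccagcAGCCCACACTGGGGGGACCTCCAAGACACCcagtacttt

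WT 1 clone 1 had 15 cells, of which 11 were resting, 2 were activated and 2 were of another type or absent from the expression table. Of its 11 resting cells, 10 held fewer than 2 naive markers and 7 held 1 rule gene. Nkg7 was above 0 in 10 of the 11 and S100a4 in 9, against 2.87% and 3.87% of the other 697 resting cells of that mouse, and Igfbp4 was above 0 in 0 of 11. Its beta CDR3 was in no cell of another mouse and its alpha CDR3 in 2. SLE.yaa 1 clone 9 had 1 resting and 4 activated cells, SLE.yaa 2 clone 6 had 1 and 3, and SLE.yaa 2 clone 10 had 1 and 2 with 1 Foxp3-expressing cell. The resting cell in each of these 3 clones held fewer than 2 naive markers, and their CDR3 sequences were in no cell of another mouse.

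Resting cells in clones of 2 or more cells of the mouse numbered 19 of 522 for WT 1 (3.64%, exact 95% interval 2.21 to 5.63) and 5 of 538 for WT 2 (0.929%, 0.302 to 2.16). SLE.yaa 1 had 5 of 95 (5.26%, 1.73 to 11.9) and SLE.yaa 2 had 8 of 53 (15.1%, 6.75 to 27.6). Both SLE.yaa mice were above both WT mice, but the interval of SLE.yaa 1 overlapped those of both WT mice, and the mean difference of 7.89 percentage points had an exact two-sided permutation p of 0.333, the smallest that 2 mice against 2 can give. Of activated helper cells 15.8% and 4.17% in WT against 44.1% and 32.5% in SLE.yaa were in such clones. The chance that 2 resting cells of a mouse share a clone was 4.34, 0.138, 0 and 7.26 per 10000 pairs, with overlapping groups (exact two-sided permutation p = 1.0). Without WT 1 clone 1 the share in WT 1 was 1.57% and the pairs were 0.307 per 10000.

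By count, cells in clones were found mostly among resting cells with few naive markers in 3 of the 4 mice. In WT 1 this majority came through clone 1. With fewer than 2 markers, 12 of 64, 0 of 41, 4 of 35 and 6 of 33 resting cells were in clones of 2 or more. With 2 or more markers it was 7 of 458, 5 of 497, 1 of 60 and 2 of 20. WT 2 was the exception, with all 5 such cells on the side of the naive markers. In WT 1, 10 of the 12 cells with fewer than 2 markers were of clone 1. Without that clone, most of the WT 1 cells in clones held 2 or more markers. So did most WT 1 resting cells with a receptor (458 of 522), so this count does not compare rates. A resting cell shared its clone with an activated helper cell in 11, 1, 5 and 4 cases. Receptors were read in 19, 24, 315 and 234 activated cells of these mice, and all 11 cases of WT 1 were of clone 1.

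**Figure D5:**
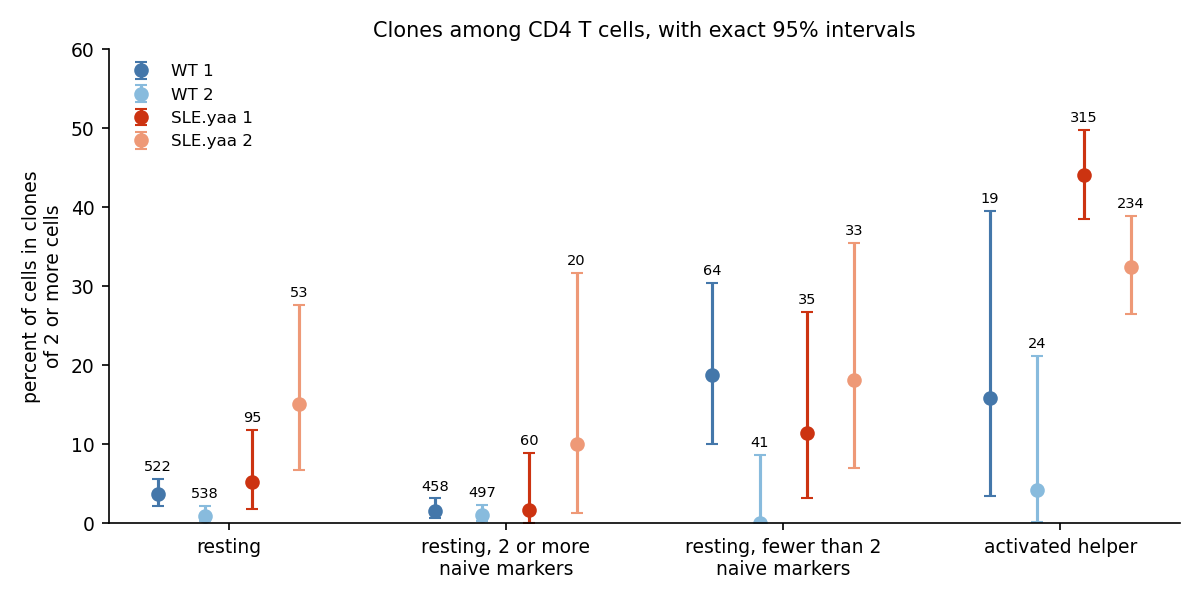
Percent of CD4 T cells with a receptor that belong to clones of 2 or more cells, by class and mouse, with exact Clopper-Pearson 95% intervals; the number above each bar is the number of cells. Resting cells stand at 3.64%, 0.929%, 5.26% and 15.1%, and activated helper cells of SLE.yaa mice at 44.1% and 32.5%.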

How the data were processed

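The members, the 17 gene lists (300 genes) and the tests were chosen with earlier results of these data known. The expression table holds the natural log (ln) of 1 plus a whole depth-adjusted value, as deposited by the authors; no source used here states how depth was adjusted. The deposited cell table gives UMI counts, the percent of mitochondrial and ribosomal UMIs, cell cycle and heat shock scores, and cell types, all as the authors made them. Cell Ranger 5.0.0, the genome build GRCm38 (mm10) and Seurat 4.0.0 were used, per the submitters' processing notes. The authors' cell filters were kept; rows without a gene name (15, with 0.0440% of the values) were left out. No doublet caller was run; cells with a heavy chain contig or with Cd79a, Ms4a1 or Cd8a were left out as alternatives.

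The values were averaged per mouse, scaled to 1000000 and by TMM factors (edgeR 4.0.16, used for the factors alone), and genes with at least 10 in at least 2 mice were tested on log2(value + 10) with limma 3.58.1 (trend) in R 4.3.3, two-sided, with Benjamini-Hochberg adjustment over all genes tested and a threshold of 0.05. A pseudocount understates the change of low genes. The 6 rule genes were not tested, nor the 4 markers where they chose the cells. The script was tested on simulated data. Named by rule were called genes, up to 4 called members of each list, markers, rule genes and genes that differed from activated cells; other names in the text were chosen after their values were seen, to show a list's range. Clones and CDR3 sequences are the authors'; coordinates are from RefSeq's GRCm38.p6 table. Some genes of the lists are not reported by name here.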

Additional observations from a re-analysis of the deposited data

Results flagged for a closer look

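Spp1, the gene of osteopontin, was the 1 gene called when its change in resting cells was set against that in activated helper cells, with a fitted difference of −4.53 on the log2 scale (limma adjusted p = 0.0234). It was listed at 0 in resting cells of all 4 mice and in activated cells of both WT mice, and entered the test through the activated cells of the 2 SLE.yaa mice alone. The 21 and 27 activated cells of WT mice could not show its absence, so a difference in change between the cell types is not shown. Within the SLE.yaa mice, 46 of 368 and 29 of 339 activated helper cells held Spp1, against 0 of 126 and 0 of 96 resting cells. Those counts of 0 allow shares of up to 2.38% and 3.13%. The difference in level within these mice was not tested.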

How the results depend on the processing

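Of the 6 genes called in resting cells, none changed direction under an alternative in which it was tested. Il2rb, Eea1 and Ly6c1 were tested in 19 alternatives, Tmem176a and Tmem176b in 15 and Sostdc1 in 13. Sostdc1 was at 0 in both WT mice and so could not change direction. The adjusted p of the 6 genes moved across the threshold easily. The count was 0 with a pseudocount of 1, without the filter on low values, with none of the 5 rule genes allowed and with at least 2 naive markers, and also with the last 2 combined; it was 69 without scaling between mice, 11 without cells that had a heavy chain contig, 3 without cells with B cell or Cd8a transcripts, and 79 in cells with fewer than 2 naive markers. Leaving out a mouse gave 69 to 2715 genes in resting cells, 1393 to 2024 in all CD4 T cells, and 5 to 888 for the difference between resting and activated cells. That difference gave 0 genes with a pseudocount of 1, without the filter, with a filter of 25 and in cells of 2000 to 6000 UMIs, 16 with a pseudocount of 50 and 5 without scaling. The share of resting cells differed by −66.0 points with none of the 5 genes and by −72.0 in the UMI window. The difference in clone sharing was 19.3 pairs per 10000 with none of the 5 genes. S100a6 had a log2 change of −0.086 with none of the 5 genes and 2 or more markers. Tcf7 ranged from −0.11 to 0.26 with a mouse left out. The cause was not tested. The set with both conditions, the set with fewer than 2 markers and the omission of the largest clone were chosen after seeing the data. No paired analysis was possible because the replicate numbers follow accession order and pair no mice. Limits are the 2 mice per group, the 96 and 126 resting cells of SLE.yaa mice, and values that are not raw counts.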
